A study of Saccharomyces cerevisiae with 61 samples.

Results

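The DNA damage and replication checkpoint of budding yeast is followed here through 10 genes, picked by name from the pathway. They are the effector kinase genes RAD53 (YPL153C), DUN1 (YDL101C) and CHK1 (YBR274W), the sensor kinase genes MEC1 (YBR136W) and TEL1 (YBL088C), the mediator genes RAD9 (YDR217C), MRC1 (YCL061C) and CSM3 (YMR048W), and the clamp genes DDC1 (YPL194W) and RAD17 (YOR368W). All 10 were measured, each by 1 probe, among 5592 named genes and 6249 features in all (a feature is a named gene or a probe without a gene name).

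As background, stalled replication forks and broken DNA are first recognised by the sensor kinases Mec1 and Tel1, the yeast relatives of human ATR and ATM. Mediator proteins then bring the effector kinases to them: Rad9 acts mainly at damaged DNA, and Mrc1, which travels with the fork together with Tof1 and Csm3, acts at stalled forks. Rad53 holds back late origins, protects forks and activates Dun1, and Dun1 in turn raises the nucleotide supply through ribonucleotide reductase. Activation of the pathway runs mainly through phosphorylation of proteins, which transcript arrays do not measure.

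Total RNA of yeast strain BY4741, released from a mating pheromone arrest, was compared on 61 two-colour arrays. Wild-type cells were left untreated or held in 0.2 M hydroxyurea (HU, which starves forks of nucleotides), 0.033% methyl methanesulfonate (MMS, which alkylates DNA) or 50 µM camptothecin (CPT, which traps topoisomerase I on DNA), and were sampled at 30, 45, 60 and 75 min. Cells deleted for RAD53 (rad53Δ) were sampled at 30 and 75 min untreated, in HU or in MMS, and a strain labelled galsicΔP was sampled untreated at 0, 40 and 100 min, with its nrm1Δ derivative (lacking the corepressor Nrm1) at 40 and 100 min. The series title asks how replication stress acts on G1/S genes through Rad53 and Nrm1. The labels give no further allele for rad53Δ and do not say what galsicΔP stands for, which promoter it uses or whether a strain is 1 clone.

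Each group holds 2 replicates, apart from the untreated 0 min samples of wild type and rad53Δ, which exist in replicate 1. Whether replicates are separate cultures is not given in the labels, and p-values then measure the spread between these samples, which may be technical. All values are on a log2 scale, with the base taken as 2 because the files do not state it, and the number of arrays limits their precision. A difference is given ± SE from a limma fit to the 54 RNA samples of all strains, n = 2 replicates at each time, and a gene is said to have risen or fallen where its p-value, adjusted by Benjamini-Hochberg over all 6249 features, is below 0.05. Times of the same replicate count as separate samples in that fit, which can make the SE of a mean over times too small. In wild type and rad53Δ, times of replicate 1 share arrays and those of replicate 2 do not. Whether times share a culture is not given in the labels. No array joins 2 strain sets, so effects of an agent can be compared between wild type and rad53Δ, but levels cannot.

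The deletions were checked first. Ratios of RAD53 lay between -0.28 and 0.06 on the 15 rad53Δ arrays, against -1.85 to 2.31 on the 36 wild-type arrays, and 88 of 6249 features had a smaller SD over the rad53Δ arrays. A missing transcript gives such flat ratios, so RAD53 has no further value in rad53Δ. The nrm1Δ minus parent difference of NRM1 was -4.17 ± 0.19 (adjusted p = 5.9e-14).

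The replicates differed in cell cycle markers at 30 and 45 min, which touches every wild-type value at these times. In replicate 2 the untreated 30 min sample had lower transcripts of the late G1 factor MBF and higher transcripts of the mitotic CLB2 cluster than the cells in any agent. The median of 12 MBF marker genes was 1.89 higher in HU than in that sample, 1.77 higher in MMS and 1.72 higher in CPT, whereas in replicate 1 these medians were 0.36, 0.72 and 0.31. The median of 9 CLB2 cluster markers was -2.27, -2.47 and -2.21 for HU, MMS and CPT in replicate 2, and -0.29, -0.34 and 0.03 in replicate 1. At 45 min the MBF medians were 1.025, 1.65 and 0.67 for HU, MMS and CPT in replicate 1 and -0.44, 0.33 and -0.72 in replicate 2. Those of 10 markers of SBF, the related late G1 factor, were 0.08, 0.42 and 0.73 in replicate 1 and -1.17, -0.97 and -0.90 in replicate 2. The CLB2 cluster medians at 45 min were -1.16, -1.05 and -0.03 in replicate 1 and -0.22, -0.76 and 0.24 in replicate 2. The part of these markers in the results was not tested, and calls that change without the 30 min or the 45 min samples are named as such.

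The untreated course of the genes can be seen in replicate 1, against its 0 min sample, as values without a test. RAD53 stood 1.99, 0.52, 0.08 and 1.31 above 0 min at the sampled times from 30 to 75 min. MRC1 had the same shape, with 2.07, 0.63, 0.33 and 0.78 at these times. DUN1 reached 1.36 at 30 min and then stood at 0.05, -0.42 and 0.03. The median of the MBF markers was 2.06, 0.72, 0.03 and 0.90 at the 4 times, so RAD53 and MRC1 were high when the MBF markers were high, at 30 and again at 75 min. CSM3 stood at 1.08, 0.95, 0.32 and -0.25, and RAD17 at 0.87, 0.60, 0.50 and 0.73. MEC1, TEL1, RAD9 and CHK1 stayed between -0.17 and 0.51 throughout. These levels are fitted over all arrays and did not always match the array that joined a sample to 0 min. For CSM3 the array of 30 over 0 min gave 0.51. That of 0 over 75 min gave -0.32, which places 75 min above 0 min, against the fitted sign. The sign at 75 min also differed for MEC1 (-0.27) and CHK1 (-0.13), while RAD53 gave -1.40 beside its fitted 1.31. All replicate 1 differences from untreated cells use these fitted levels.

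**Figure D1:**
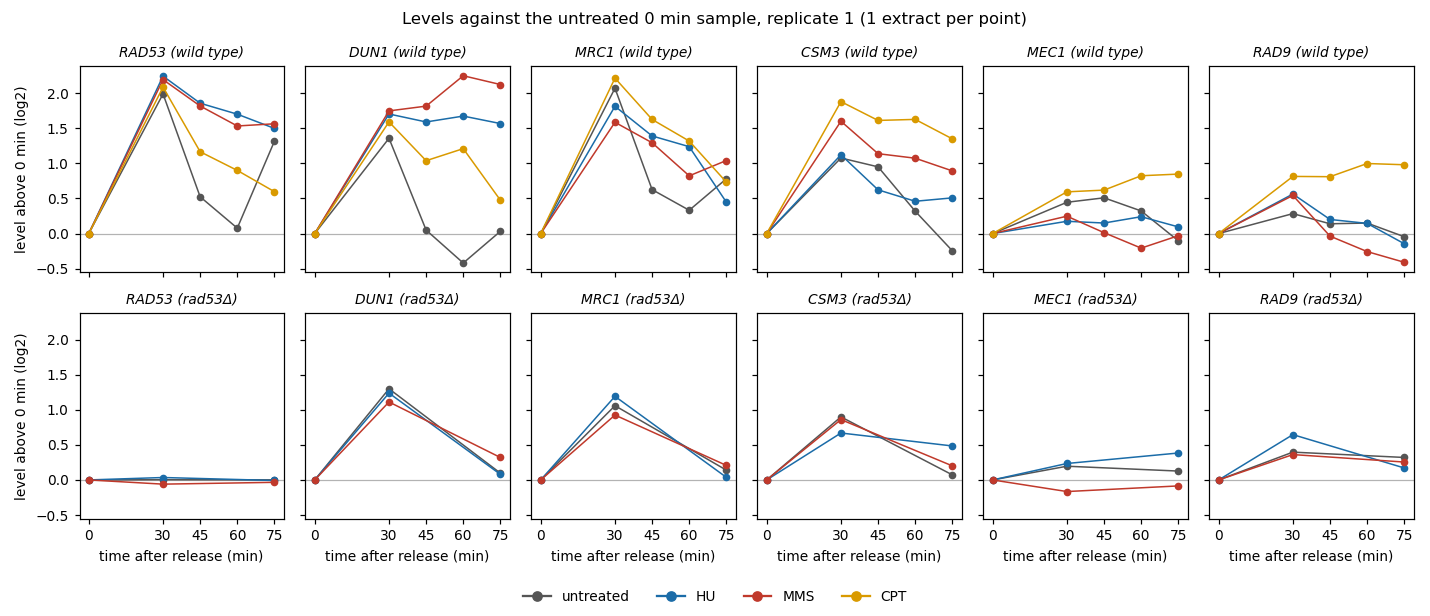
Level of 6 checkpoint genes (log2, against the untreated 0 min sample of the same strain) over time after release, in wild type (upper row) and rad53Δ (lower row), replicate 1, with 1 RNA sample per point. In wild type, RAD53 and DUN1 fell back by 60 min without treatment and stood between 1.50 and 2.25 at 60 and 75 min in HU and MMS, while in rad53Δ all 3 DUN1 lines lay between 0.08 and 0.32 at 75 min.

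DUN1, the kinase that Rad53 activates, was the checkpoint gene with the largest response. In HU its difference from untreated cells of the same time was 0.35, 1.54, 2.09 and 1.54 at 30, 45, 60 and 75 min in replicate 1. In replicate 2 it was 1.66, 0.50, 1.45 and 1.47. All 8 differences were above 0, and the mean was 1.32 ± 0.13, a 2.50-fold rise (adjusted p = 3.4e-08), which ranked 15 of 6249 features from the highest. In MMS the differences were 0.39, 1.77, 2.67 and 2.09 in replicate 1 and 1.54, 0.79, 1.74 and 1.56 in replicate 2. Again all 8 were above 0, with a mean of 1.57 ± 0.13, a 2.97-fold rise (adjusted p = 1.4e-10, rank 58). In CPT replicate 1 gave 0.23, 0.99, 1.63 and 0.44, and replicate 2 gave 1.41, -0.07, 1.34 and 0.37. Of these 8 values 7 were above 0, and the mean rise of 0.79 ± 0.13 was 1.73-fold (adjusted p = 0.0012, rank 12).

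The 3 agents differ in how many features they moved, so the counts of checkpoint genes are read against that. In HU 3 of 10 checkpoint genes rose and 0 fell, where 33.1% of all features passed the test in either direction. In MMS 3 rose and 1 fell, where 58.2% of all features passed. In CPT 1 rose and 0 fell, where 6.02% passed. None of these shares stands out from the background, and the median difference over the 10 genes was 0.07 in HU, 0.11 in MMS and 0.21 in CPT, beside medians over all features of -0.004, -0.02 and 0.001.

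RAD53, the kinase at the centre of the pathway, rose in HU and MMS. Its HU differences at 30, 45, 60 and 75 min were 0.25, 1.33, 1.62 and 0.18 in replicate 1 and 1.70, -0.06, 0.90 and 0.18 in replicate 2. The replicates thus differed at 30 and 45 min and were both high at 60 min, and the mean was 0.76 ± 0.15, a 1.70-fold rise (adjusted p = 0.00030). In MMS replicate 1 gave 0.20, 1.29, 1.46 and 0.25 and replicate 2 gave 1.67, -0.28, 1.09 and -0.20, with a mean of 0.69 ± 0.15, a 1.61-fold rise (adjusted p = 0.00033). At 75 min, when untreated cells of replicate 1 had RAD53 high again, the difference was near 0 in both agents, although the level in HU and MMS was still 1.50 and 1.56 above 0 min. In CPT the differences were 0.10, 0.64, 0.82 and -0.72 in replicate 1 and 1.77, -0.72, 0.83 and -0.82 in replicate 2, and their mean of 0.24 ± 0.15 did not pass the test (adjusted p = 0.33). Without 30 min, the mean RAD53 difference was 0.69 in HU (adjusted p = 0.0026), 0.60 in MMS (0.0041) and 0.01 in CPT (0.99). The flat ratios of RAD53 in rad53Δ enter its shared SE. Fitted on the wild-type samples alone, its adjusted p was 0.0043 in HU and 0.0039 in MMS.

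CHK1, the effector kinase that protects the securin Pds1, did not pass the test in HU (-0.04 ± 0.09), MMS (0.08 ± 0.09) or CPT (0.19 ± 0.09). Its 95% intervals ran from -0.23 to 0.15, from -0.11 to 0.28 and from -0.01 to 0.38. The CPT differences of replicate 1 were 0.06, 0.01, 0.55 and 0.84 over the 4 times, and those of replicate 2 lay between -0.10 and 0.14.

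**Figure D2:**
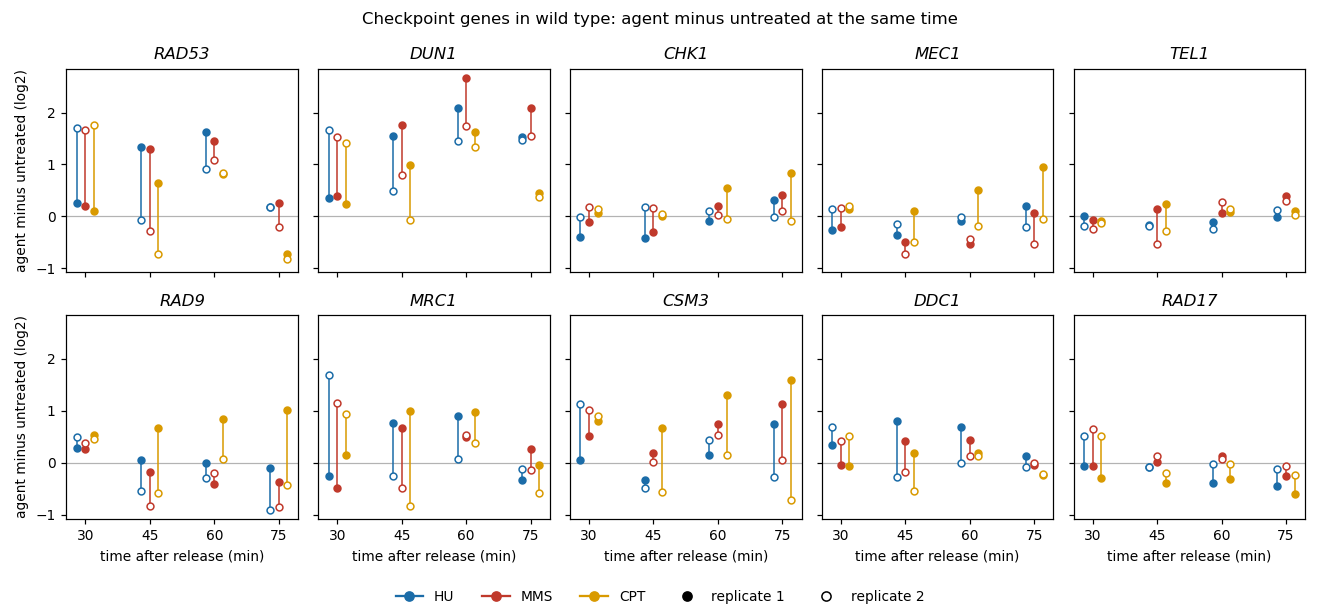
Difference between agent and untreated wild-type cells (log2) for each of the 10 checkpoint genes at 30, 45, 60 and 75 min, with replicate 1 as filled and replicate 2 as open circles joined by a line, HU, MMS and CPT side by side. DUN1 lies above 0 in all 8 values of HU and of MMS, the lines of RAD53 and MRC1 are long at 30 and 45 min, and those of TEL1 stay between -0.52 and 0.40.

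Of the sensor kinases, MEC1 fell in MMS by 0.34 ± 0.11 (adjusted p = 0.011). Its MMS differences were -0.20, -0.50, -0.53 and 0.07 in replicate 1 and 0.15, -0.73, -0.44 and -0.53 in replicate 2, so it was lower in 6 of 8 values. In HU it was -0.09 ± 0.11 and in CPT 0.15 ± 0.11, neither past the test. The MMS call was lost without replicate 2 (-0.29, adjusted p = 0.099), without 45 min (-0.25, 0.11) and with 1 value per replicate and treatment (adjusted p = 0.094). TEL1 did not pass the test in any of the 3 means over times, with -0.10 ± 0.06 in HU, 0.04 ± 0.06 in MMS and 0.02 ± 0.06 in CPT. Its MMS difference was -0.07 and -0.25 at 30 min but 0.40 and 0.30 at 75 min in replicates 1 and 2. The 75 min rise of 0.35 ± 0.12 (adjusted p = 0.025) and the change from 30 to 75 min of 0.51 ± 0.18 (adjusted p = 0.038) passed the test. The former call was lost without replicate 1, and the latter without either replicate. Both were also lost with arrays scaled to equal spread and with the wild-type samples fitted alone.

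Among the mediators, CSM3, a subunit of the fork protection complex, rose in MMS by 0.53 ± 0.17 (adjusted p = 0.012). The 8 MMS differences, 0.52, 0.19, 0.75 and 1.14 in replicate 1 and 1.02, 0.01, 0.53 and 0.05 in replicate 2, were all above 0. The call was lost without 30 min (0.45, adjusted p = 0.061) and with 1 value per replicate (0.082). In HU CSM3 was 0.18 ± 0.17 and in CPT 0.52 ± 0.17 (adjusted p = 0.069), where replicate 1 gave 0.80, 0.66, 1.31 and 1.59 and replicate 2 gave 0.91, -0.56, 0.16 and -0.71. MRC1 did not pass the test in HU (0.31 ± 0.17), MMS (0.25 ± 0.17) or CPT (0.25 ± 0.17). Its HU values of -0.26 and 1.69 at 30 min in replicates 1 and 2 differed by more than its mean difference. RAD9 was -0.12 ± 0.12 in HU, -0.27 ± 0.12 in MMS (adjusted p = 0.053) and 0.32 ± 0.12 in CPT (adjusted p = 0.097). In MMS both replicates of RAD9 were above 0 at 30 min (0.26 and 0.38) and below 0 at 45, 60 and 75 min (-0.18, -0.41 and -0.36 in replicate 1, -0.83, -0.20 and -0.84 in replicate 2). The mean without 30 min was -0.47 (adjusted p = 0.0051), a value chosen after the data were seen.

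The clamp genes moved little. DDC1 rose in HU by 0.29 ± 0.08 (adjusted p = 0.010), but its HU differences were 0.34, 0.80, 0.69 and 0.14 in replicate 1 and 0.69, -0.26, -0.003 and -0.09 in replicate 2. Without replicate 1 the mean was 0.08 (adjusted p = 0.40), and without 30 min it was 0.21 (0.10), so 1 replicate decides this call. DDC1 was 0.14 ± 0.08 in MMS and -0.01 ± 0.08 in CPT, and RAD17 was -0.09 ± 0.08 in HU, 0.08 ± 0.08 in MMS and -0.19 ± 0.08 in CPT, none past the test. Without 30 min RAD17 fell in CPT (-0.30, adjusted p = 0.039).

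Tested at single times, the HU response was carried by DUN1 and RAD53. At 30 min in HU 0 of 10 checkpoint genes passed the test, where 0.288% of features did, and 4 had an unadjusted p under 0.05. At 45 min DUN1 rose (1.02 ± 0.25, with 5.5% of features called), at 60 min DUN1 (1.77 ± 0.25) and RAD53 (1.26 ± 0.30) rose (11.8% called), and at 75 min DUN1 rose (1.50 ± 0.25, 19.7% called). In MMS DUN1 rose at every time, by 0.96, 1.28, 2.20 and 1.82 (each ± 0.25), where 11.2%, 28.8%, 37.1% and 42.2% of features were called at 30, 45, 60 and 75 min. RAD53 rose in MMS at 30 min (0.94 ± 0.30) and 60 min (1.27 ± 0.30). MEC1 fell at 45 min (-0.61 ± 0.22), a call lost without either replicate, and RAD9 fell at 75 min (-0.60 ± 0.24). With the wild-type samples fitted alone these calls of MEC1 and RAD9 were lost. So were the MMS calls of DUN1 and RAD53 at 30 min and the HU call of DUN1 at 45 min. The RAD53 call in MMS at 30 min was lost, too, in both fits to array ratios. At 30 min the MMS calls of both kinase genes were lost without replicate 2, with 0.39 for DUN1 (adjusted p = 0.31) and 0.20 for RAD53 (0.56), and at 45 min the HU call of DUN1 was lost without replicate 1 (0.50, adjusted p = 0.19).

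In CPT, DUN1 rose at 60 min (1.48 ± 0.25, adjusted p = 0.0058), where 0.416% of features were called, and not with the wild-type samples fitted alone (0.089). At 30 and 45 min 0 checkpoint genes and 0 features passed limma's test (0% called), with 579 and 309 features at an unadjusted p under 0.05. At 75 min 0 checkpoint genes passed (0.928% of features), although RAD53 was lower in both replicates (-0.77 ± 0.30, adjusted p = 0.20). Setting 75 min against 30 min, the CPT difference of RAD53 changed by -1.70 ± 0.42 (adjusted p = 0.041, 1.42% called). It was -0.82 without replicate 2, where the call was lost, and -2.59 without replicate 1. The call was also lost with the wild-type samples fitted alone (adjusted p = 0.23). It was lost, too, with the 0 min sample that some titles label MMS taken as a sample of its own. For HU and MMS the same contrast called 0 and 1 checkpoint genes, the latter TEL1, beside 8.07% and 22.7% of features.

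The agents were then set against each other over 30 to 75 min, in which the untreated level cancels, although arrays that hold untreated RNA link the agents. MMS against HU called 0 of 10 checkpoint genes, although 41.2% of features were called and 3 of the 10 had an unadjusted p under 0.05. DUN1 was 0.24 ± 0.13 higher in MMS than in HU (95% interval -0.02 to 0.51) and RAD53 -0.08 ± 0.15 (-0.38 to 0.23), so a difference of up to 0.51 for DUN1 lies within the interval. Without 30 min MEC1 was lower in MMS than in HU (-0.35, adjusted p = 0.033) and TEL1 higher (0.21, 0.023), and without 45 min TEL1 was higher (0.19, 0.041). CPT against HU called 4 of 10 (30.6% of features). DUN1 and RAD53 were both lower in CPT, by -0.53 ± 0.13 (adjusted p = 0.0031) and -0.53 ± 0.15 (0.0096). DDC1 was also lower (-0.29 ± 0.08, adjusted p = 0.011), and RAD9 was higher (0.45 ± 0.12, 0.0071). Without replicate 1 the calls of RAD9 (0.18, adjusted p = 0.083) and DDC1 (-0.11, 0.27) were lost, and without 45 min that of DDC1 (-0.24, 0.074). Fitted to array ratios directly, CPT against HU lost the calls of RAD53 (-0.44, adjusted p = 0.074), RAD9 and DDC1. CPT against MMS lost that of RAD53 in this fit (-0.34, 0.058). With 1 value per replicate and treatment, the calls of RAD9 and DDC1 in CPT against HU were lost too.

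CPT against MMS called 5 of 10 checkpoint genes, where 56.6% of features were called. DUN1 (-0.77 ± 0.13, adjusted p = 1.4e-05), RAD53 (-0.45 ± 0.15, 0.013) and RAD17 (-0.27 ± 0.08, 0.0038) were lower in CPT. MEC1 (0.49 ± 0.11, 6.3e-04) and RAD9 (0.60 ± 0.12, 1.6e-04) were higher. The RAD17 call was lost with 1 value per replicate and treatment. Without replicate 1 the difference was 0.26 for MEC1 (adjusted p = 0.15), 0.25 for RAD9 (still called) and -0.19 for RAD17 (0.13). CSM3 changed direction between replicates, with 0.44 from replicate 1 (adjusted p = 9.3e-04) and -0.45 from replicate 2 (0.0012), and a mean of -0.01 ± 0.17.

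The replicates of CPT did not match across the genome. The mean CPT difference of replicates 1 and 2 correlated at r = 0.04 across 6249 features, against 0.68 for HU and 0.85 for MMS, where genes are not independent and share the arrays and the untreated samples. The number of checkpoint genes called in CPT was 7 without replicate 2, where 1976 of 6249 features were called, and 1 without replicate 1, where 110 were. The mean CPT difference was 1.09 in replicate 1 and -0.05 in replicate 2 for CSM3, and 0.77 and -0.12 for RAD9. For MEC1 it was 0.43 and -0.13, and for MRC1 0.52 and -0.02. Arrays of replicate 1 disagreed for some of these genes. For CSM3 the array of 0 min over CPT 75 min gave -1.73, but the steps from 0 to 75 min were 1.49, -0.65, -0.37 and -0.66. For MEC1 that array gave -1.13, and the steps were 0.31, -0.26, -0.08 and -0.26. For RAD9 that array gave -1.17, and the first step 0.63. The part of this in the replicate differences was not tested. The means over times were close for DUN1 (0.82 and 0.76), RAD53 (0.21 and 0.26) and DDC1 (0.02 and -0.03). Single times of DUN1 were not: replicates 1 and 2 gave 0.23 and 1.41 at 30 min, and 0.99 and -0.07 at 45 min.

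Other genes of the pathway, taken from lists made with earlier results of these data known, show where the kinase genes stand. Of 14 genes on which Rad53, Dun1 or Chk1 act or which act with them, 8 rose and 1 fell in HU, 9 rose and 2 fell in MMS, and 5 rose and 0 fell in CPT. Their medians were 0.37, 0.53 and 0.30. Genes with large changes were HUG1, a ribonucleotide reductase inhibitor (3.88 ± 0.33 in HU, 2.36 ± 0.33 in MMS, 1.17 ± 0.33 in CPT), and the reductase genes RNR2 (2.24, 1.53 and 0.99, each ± 0.17) and RNR4 (2.06, 1.53 and 0.98, each ± 0.10). RNR1, the large subunit gene, rose by 3.42 ± 0.54 in MMS and 1.67 ± 0.54 in HU.

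Of 10 further sensors and loaders, 2 rose and 1 fell in HU, 2 rose and 2 fell in MMS, and 0 rose and 2 fell in CPT. Of all features, 33.1% passed in HU, 58.2% in MMS and 6.02% in CPT. The called counts of these genes, and of the fork and phosphatase genes below, were under these shares in HU and MMS. In CPT the sensor and fork counts lay above the share, with few genes called, and the phosphatase count did not. CTF18, which encodes part of an alternative clamp loader, rose in HU (0.47 ± 0.10) and MMS (0.44 ± 0.10), and RAD50, of the break sensor complex, fell in CPT (-0.56 ± 0.11). MEC3, which encodes the partner of Ddc1 and Rad17 in the clamp, fell in HU (-0.30 ± 0.07). Of 12 fork and adaptor genes 2 rose in HU, 4 rose and 1 fell in MMS, and 1 rose in CPT. TOF1, which encodes the partner of Csm3, rose in MMS (0.59 ± 0.17) and CPT (0.60 ± 0.17), beside the CSM3 values of 0.53 and 0.52. Of 6 phosphatase genes that act on the pathway 0 passed in HU and CPT, and in MMS 1 rose, the Rad53 phosphatase gene PTC3 (0.28 ± 0.06), and 2 fell, PSY2 (-0.39 ± 0.07) and PPH3 (-0.25 ± 0.07), which encode subunits of 1 phosphatase.

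Cell cycle markers moved with these results. Of 12 MBF markers 11 rose in HU, 11 in MMS and 3 in CPT, with medians of 0.68, 1.36 and 0.24. Of 9 CLB2 cluster markers 8 fell in HU, 9 in MMS and 0 in CPT, with medians of -1.05, -1.27 and -0.13. Of 10 SBF markers 1 rose and 1 fell in HU, 4 rose and 3 fell in MMS, and 1 rose in CPT, with medians of -0.10, 0.26 and -0.19. Of 8 histone genes, which mark S phase, 3 fell in HU, 1 rose and 3 fell in MMS, and 0 passed in CPT, with medians of -0.20, -0.22 and -0.15. CPT differed from HU and MMS in the MBF and CLB2 cluster markers, where 30.6% and 56.6% of all features were called. In CPT 6 and 9 of the 12 MBF markers were lower, and 8 and 9 of the 9 CLB2 cluster markers were higher. A difference in cell cycle position and a change of the checkpoint genes within a position cannot be told apart in such bulk samples, and their part in the rise of RAD53 and DUN1 was not tested.

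In rad53Δ the agents were set against untreated cells to ask which responses need Rad53. In HU 0 of 9 checkpoint genes passed the test (7.15% of features called), and in MMS 0 of 9 (13.4% called), with 1 and 0 at an unadjusted p under 0.05. DUN1 lay near 0: in HU its differences were -0.06 and 0.13 at 30 min and -0.02 and 0.08 at 75 min in replicates 1 and 2, and in MMS -0.19 and 0.09, then 0.22 and 0.20. The means were 0.03 ± 0.18 (95% interval -0.34 to 0.40) and 0.08 ± 0.18 (-0.29 to 0.45). Over the same times wild-type DUN1 was 1.25 ± 0.18 higher in HU and 1.39 ± 0.18 higher in MMS.

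The difference between the strains was tested itself. The DUN1 response was -1.22 ± 0.25 in rad53Δ relative to wild type in HU (adjusted p = 0.0088, 2.8% of features called) and -1.31 ± 0.25 in MMS (adjusted p = 0.0024, 7.36% called). DUN1 was the 1 of 9 checkpoint genes called in each. At 75 min alone, without the 30 min samples, the differences were -1.47 (adjusted p = 0.011) and -1.61 (0.0037). Leaving out a rad53Δ replicate kept the size but not always the call: -1.14 and -1.29 in HU (adjusted p = 0.18 and 0.16) and -1.25 and -1.38 in MMS (0.11 and 0.047). Of the 14 genes acting with the kinases, 4 had a lower response in rad53Δ in HU and 6 in MMS. They include HUG1 (-3.00 ± 0.66 and -2.36 ± 0.66), RNR4 (-1.49 ± 0.20 and -1.77 ± 0.20) and RNR3 (-1.20 ± 0.31 and -1.82 ± 0.31). In the other lists of the pathway 0 genes passed in either agent. Cell cycle markers differed too: in MMS 1 of 12 MBF markers had a lower and 4 of 9 CLB2 cluster markers a higher response in rad53Δ. The median strain differences in MMS were -0.72 for MBF and 0.95 for CLB2 cluster markers. In HU 0 markers passed, but the medians were -0.31 for MBF, 0.27 for SBF and 0.37 for CLB2 cluster markers. The part of the markers in the DUN1 difference was not tested.

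**Figure D3:**
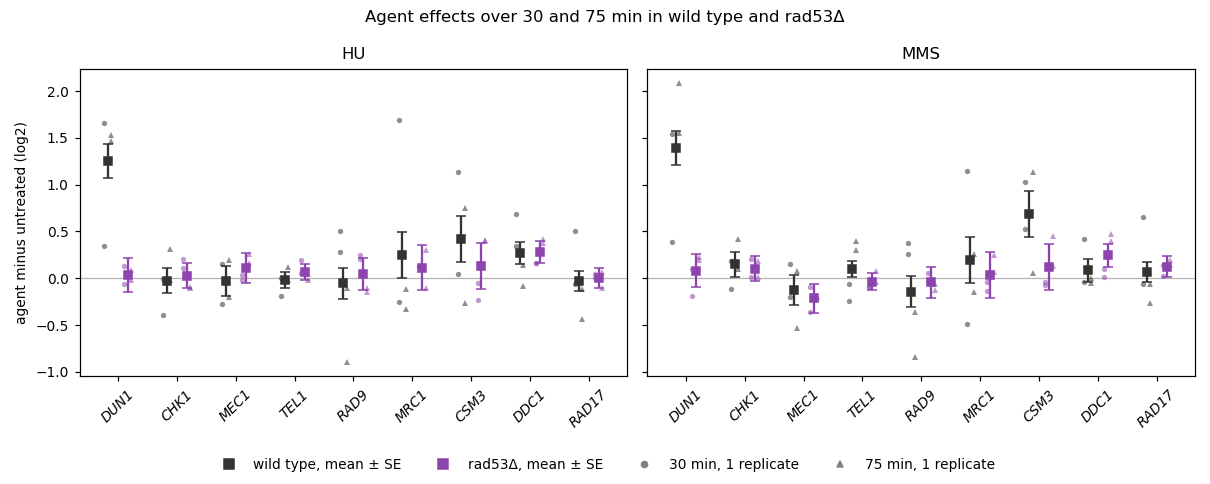
Response to HU (left) and MMS (right) over 30 and 75 min in wild type (dark) and rad53Δ (purple) for 9 checkpoint genes, as agent minus untreated (log2), with squares and bars for mean ± SE and small symbols for each replicate at 30 min (circles) and 75 min (triangles). DUN1 has the widest gap between strains, at 1.25 and 0.03 in HU and 1.39 and 0.08 in MMS.

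Without an agent DUN1 was still higher at 30 min than at 0 and 75 min in rad53Δ, as values of 1 replicate without a test. In replicate 1 it stood 1.30 above 0 min at 30 min and 0.10 at 75 min untreated, 1.24 and 0.08 in HU, and 1.11 and 0.32 in MMS. MRC1 did likewise, with 1.06 and 0.14 untreated, 1.19 and 0.04 in HU, and 0.92 and 0.21 in MMS. The median of the MBF markers in rad53Δ was 1.81 and 0.23 untreated, 1.80 and 0.51 in HU, and 1.76 and 0.80 in MMS, so the treated cells, too, had lower MBF markers at 75 min than at 30 min.

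The other 8 genes gave small values in rad53Δ, and the replicates of this strain lay close together. DDC1 was above untreated in all 4 HU values (0.17, 0.16, 0.41 and 0.37) and all 4 MMS values (0.01, 0.10, 0.47 and 0.39). Its means of 0.28 ± 0.12 and 0.25 ± 0.12 did not pass the test with the spread shared over strains (adjusted p = 0.16 and 0.19). They did with the rad53Δ samples fitted alone (0.0035 and 0.0048). MEC1 in MMS was below untreated in all 4 values (-0.36, -0.09, -0.21 and -0.19), with a mean of -0.21 ± 0.16 (adjusted p = 0.43, and 0.026 in rad53Δ alone). The strain differences of DDC1 (0.01 ± 0.17 in HU, 0.16 ± 0.17 in MMS) and MEC1 (0.14 ± 0.22 and -0.09 ± 0.22) did not pass the test. CSM3, which rose in wild type in MMS, was 0.12 ± 0.25 in rad53Δ, and its strain difference of -0.57 ± 0.35 did not pass either (95% interval -1.29 to 0.15).

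Loss of Nrm1, a corepressor that acts on MBF target genes, was tested without any agent in galsicΔP. Over 40 and 100 min, 4 of 10 checkpoint genes rose in nrm1Δ and 0 fell, where 31.6% of features were called. MRC1 was 0.89 ± 0.24 higher than in the parent (adjusted p = 0.0066), DUN1 0.88 ± 0.18 (5.8e-04), RAD53 0.79 ± 0.21 (0.0052) and CSM3 0.76 ± 0.25 (0.019). Loop 1 pairs parent replicate 1 with nrm1Δ replicate 2 at both times, and loop 2 the reverse. In loops 1 and 2 DUN1 was 1.13 and 1.397 higher at 40 min and 0.75 and 0.24 at 100 min. MRC1 was 0.99 and 0.78, then 1.15 and 0.65 higher, and RAD53 0.48 and 0.93, then 0.90 and 0.87. CSM3 was 0.86 and 1.21, then 0.63 and 0.36 higher, so all 4 genes were higher in nrm1Δ in each of their 4 pairs. MEC1 was -0.33 ± 0.16 (adjusted p = 0.11), and the values of CHK1 (0.23 ± 0.13), RAD9 (0.23 ± 0.17), RAD17 (0.17 ± 0.11), DDC1 (0.15 ± 0.12) and TEL1 (-0.15 ± 0.09) did not pass the test.

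With loop 1 left out, RAD53 (0.90, adjusted p = 0.055), MRC1 (0.71, 0.19) and CSM3 (0.78, 0.17) kept their size but lost the call. With loop 2 left out RAD53 (0.69, 0.12) and CSM3 (0.75, 0.16) did. With arrays scaled to equal spread all 4 were lost (0.45 to 0.54, adjusted p from 0.155 to 0.267). At 40 min DUN1 (1.26 ± 0.25) and CSM3 (1.04 ± 0.35) rose, with 24.6% of features called. DUN1 lost that call without loop 2 (adjusted p = 0.051), and CSM3 without either loop (0.14 and 0.31). At 100 min 0 of 10 passed the test, with 9.94% called and 2 of the 10 at an unadjusted p under 0.05. Over 40 and 100 min, where 31.6% of features were called, 12 of 12 MBF markers rose in nrm1Δ (median 1.05). So did 7 of 10 SBF markers (0.93) and 2 of 8 histone genes (0.43), while 0 of 9 CLB2 cluster markers passed. Of the wider pathway, 6 of 10 sensors and loaders (among them CTF18, 0.70 ± 0.13, and ELG1, 0.67 ± 0.16) and 8 of 12 fork and adaptor genes (among them RTT107, 0.94 ± 0.25, and SLD2, 0.72 ± 0.15) rose. Of the 14 genes acting with the kinases 4 rose and 2 fell (median 0.16), among the latter the deleted NRM1 itself, and of 6 phosphatase genes 1 rose and 1 fell.

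**Figure D4:**
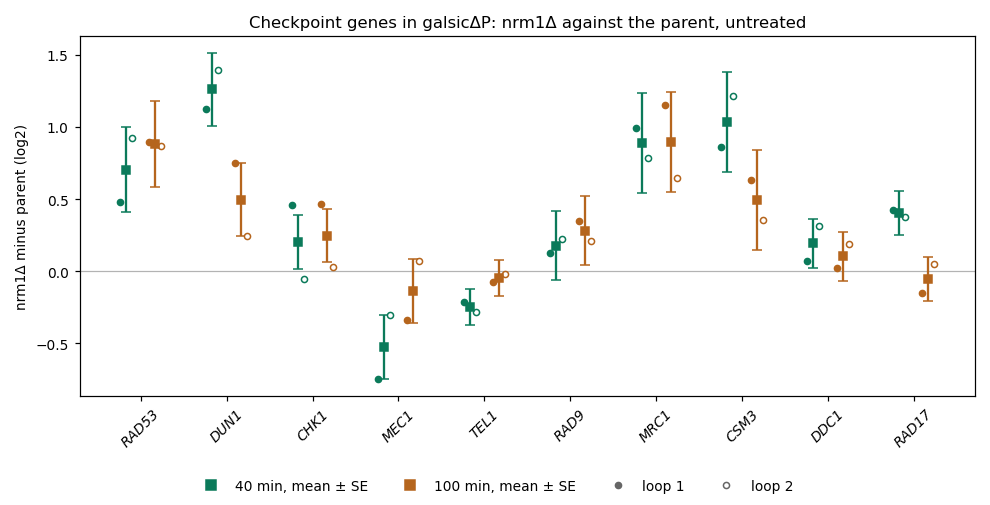
Difference between nrm1Δ and its galsicΔP parent (log2), untreated, for the 10 checkpoint genes at 40 min (green) and 100 min (brown), with squares and bars for mean ± SE and circles for loop 1 (filled) and loop 2 (open). DUN1, MRC1, RAD53 and CSM3 lie above 0 in all 4 circles each, from 0.24 to 1.397.

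Over time in the parent, 3 of 10 checkpoint genes changed between 0 and 40 min, where 57.3% of features were called. Both 0 min samples lie in loop 1, with 1 of the 2 parent samples of 40 min, and loop 2 holds no 0 min sample. CSM3 rose by 1.50 ± 0.37 (adjusted p = 0.0012) and RAD17 by 0.64 ± 0.16 (0.0015), and MEC1 fell by 0.88 ± 0.24 (0.0024). DUN1 (0.55 ± 0.27), RAD53 (0.52 ± 0.31) and MRC1 (0.43 ± 0.37) did not pass. With arrays scaled to equal spread CSM3 was 0.52 (adjusted p = 0.33), RAD17 0.26 (0.39) and MEC1 -0.29 (0.33), so these 3 calls rest on the scale of the arrays as deposited. Between 40 and 100 min TEL1 fell in the parent by 0.37 ± 0.12 (adjusted p = 0.027, 27.9% called), and RAD17 fell in nrm1Δ by 0.64 ± 0.15 (0.0057, 14% called). TEL1's call was lost without either loop (adjusted p = 0.10 and 0.40), and that of RAD17 without loop 1 (0.34).

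Last, the genes with the most similar pattern were found for 7 of the checkpoint genes that passed in at least 1 main comparison, leaving out RAD53, which is deleted in part of the samples. Likeness was the root mean square difference over the 54 samples of the fit, each centred on its replicate and time, or its loop. It was taken over all named genes. DUN1 was closest to PLM2 (0.26), RFA2 (0.28) and SPC29 (0.28), against a median of 0.64 over all genes. MRC1 was closest to BNI4 (0.18), SMC1 (0.18) and CSA1 (0.21), and CSM3 to SPH1 (0.23), TOF1 (0.24) and ISW1 (0.25). MEC1 was nearest to GCN2 (0.14) and RAD9 to SAP185 (0.16), and RAD17 was nearest to CDC8 (0.13) and DDC1 to BDP1 (0.14). Among the checkpoint genes themselves RAD17 and DDC1 (0.21), TEL1 and CHK1 (0.21) and TEL1 and DDC1 (0.24) were nearest each other. DUN1 and MEC1 were farthest apart (0.78). Genes with small changes come out near each other by this measure.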

How the data were processed

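The deposited values are log ratios of Cy5 over Cy3 RNA, 1 per probe and array, taken as log2. The submitters' processing notes name limma without a version, and how the authors corrected background or normalised was not given in the sources used here. There were 6266 probes on 61 arrays (36 wild type, 15 rad53Δ, 10 galsicΔP) with 0 missing values. Array medians lay between -0.0258 and 0.0249. Signal over background is unknown. Of the probes, 5609 carried 1 gene symbol and 657 carried none. Locus tags come from RefSeq's assembly R64.

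Array ratios were turned into levels of 56 RNA samples by least squares within each strain set, with a dye term. limma 3.58.1 in R 4.3.3 was then fitted to 54 of them, with terms for group and for 14 blocks (replicate and time, or loop). This left 20 residual degrees of freedom. In replicate 2 of wild type and rad53Δ the samples of 1 time were hybridised to each other. In replicate 1 the arrays ran along time within an agent and met at the untreated 0 min sample. No replicate 1 array of these strains therefore joined an agent to untreated cells of the same time. In wild type and rad53Δ the replicate is contained in these blocks, while each galsicΔP loop mixes both replicate numbers. Each 0 min sample of wild type and rad53Δ would have been a block of its own and was not fitted. On 2 wild-type arrays whose titles give MMS at 0 min, the source name (untreated) was used, and on 1 rad53Δ array with conflicting times the title (30 min). The procedure was run on simulated data with independent RNA samples. Such data do not hold the dependence between times of a replicate, so they cannot check the SE for it. Figures were drawn with matplotlib 3.10.9 in Python 3.11.15.

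The 10 genes, the comparisons and the gene lists (4 of the wider pathway, 4 of cell cycle markers) were chosen with earlier results of these data known. From each list at most the 4 largest changes past the threshold in a main comparison were eligible to be named, with exceptions named for their partner or small count after their values were seen. For the members other than RAD53 that passed in 1 of 11 main comparisons, the 3 nearest genes by pattern were sought. The alternatives were leaving out each replicate or loop, 1 value per replicate and treatment, fits to array ratios with and without slide as a block, no dye term, scaled or centred arrays, each strain set alone, robust variance, named genes only, other readings of the conflicting labels and, added after seeing the data, leaving out 30 min or 45 min.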

Additional observations from a re-analysis of the deposited data

Results flagged for a closer look

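The response of DUN1 differed between strains by a test of the difference itself: it was -1.22 ± 0.25 in rad53Δ relative to wild type in HU and -1.31 ± 0.25 in MMS. TEL1 differed between times in wild type, with an MMS difference 0.51 ± 0.18 higher at 75 than at 30 min, a call kept in 7 of 11 alternatives. RAD53 likewise differed between times in CPT, by -1.70 ± 0.42 at 75 against 30 min, a call kept in 8 of 11 alternatives. The untreated 30 min sample of replicate 2 had lower MBF markers than the treated cells.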

How the results depend on the processing

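DUN1 and RAD53 kept their calls in HU and MMS under all 14 alternatives run for them, as did DUN1 in CPT, CPT against HU and CPT against MMS, and RAD9 in CPT against MMS. DUN1 ranged from 1.24 to 1.43 in HU, 1.41 to 1.77 in MMS and 0.73 to 0.90 in CPT, and RAD53 from 0.64 to 0.87 in HU and 0.54 to 0.80 in MMS. Among values of single genes called in at least 1 of the fits compared, 2 reversed: CSM3 in CPT against MMS (-0.45 without replicate 1, 0.44 without replicate 2) and RAD9 in CPT at 45 min (-0.58 and 0.67), while 75 lost and 170 gained a call in the same direction. Other values that changed sign were called in neither fit. The cause of the changes below was not tested, except that fits on 1 replicate or 1 strain hold fewer samples.

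With 1 value per replicate and treatment as a replicate block, the features called were 843 in HU (2067 in the fit reported), 5 in CPT (376), 1229 in MMS against HU (2572), 333 in CPT against HU (1915) and 2338 in CPT against MMS (3537), and 2 checkpoint genes were called in MMS and 2 in CPT against HU (4 and 4). Array ratios fitted directly, with no replicate block, called 1155 features and 1 checkpoint gene in CPT against HU, 1 checkpoint gene in MMS against HU, 1232 features and 1 checkpoint gene in rad53Δ in HU (447 and 0), 1612 in MMS (836), and 731 and 873 for the strain differences in HU and MMS (175 and 460). With slide as a random block these were 1205 and 1, 1, 1217 and 1, 1658, 749 and 905. Arrays scaled to equal spread gave 93 and 145 features for the strain differences, 267 features and 0 checkpoint genes for nrm1Δ (1977 and 4) and 1 checkpoint gene in MMS against HU. Each strain set fitted alone gave 59 features in CPT, 2003 features and 1 checkpoint gene in rad53Δ in HU, and 2396 and 2 in MMS. Without 30 min, 2 checkpoint genes (DUN1 and RAD17) and 478 features were called in CPT, 2 and 2561 in MMS against HU, and 503 features for the strain difference in HU. Without 45 min, 1 checkpoint gene and 2003 features were called in MMS against HU. Where a count of checkpoint genes stands here without one of features, it was not read against the share of all features.

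Leaving out each replicate in turn gave 110 to 1976 features and 1 to 7 checkpoint genes in CPT, 826 to 2696 and 2 to 7 in CPT against HU, 2579 to 3555 and 4 to 8 in CPT against MMS, and 1881 to 2134 and 0 to 5 in MMS against HU. In rad53Δ it gave 34 to 43 features in HU and 168 to 203 in MMS, and for the strain differences 16 to 256 features and 0 to 1 checkpoint genes in HU and 45 to 631 and 0 to 2 in MMS. For nrm1Δ it gave 1137 to 1281 features and 1 to 2 checkpoint genes. With 1 replicate left, its spread is assumed to be that of the other groups. Same-numbered nrm1Δ and parent samples share no loop, so a block by their number could not be fitted.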
